A study of Mus musculus with 6 samples.

Results

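The genes described here are 10 members of the fibroblast growth factor (FGF) system, 6 ligands (Fgf1, Fgf2, Fgf7, Fgf9, Fgf10 and Fgf18) and 4 receptors (Fgfr1, Fgfr2, Fgfr3 and Fgfr4), out of 46983 genes counted in the series. They were chosen by name, with earlier results of these data known, and each symbol was matched to 1 Ensembl identifier. RNA sequencing was done on mouse embryo cells, called embryonic fibroblasts in the series design, from C57BL/6 embryos of 14 days, at passage 16 in DMEM with 10% serum. Both groups share strain, passage and medium and differ in the labelled genotype, wild type (3 libraries) or SphK2 null (3 libraries). SphK2 is sphingosine kinase 2, an enzyme that makes the lipid signal sphingosine-1-phosphate, and the series title places the work in the fibroblasts of breast tumours. The sources used here do not give the design of the null allele, nor whether the libraries of a label came from separate embryos or cultures, so each p-value reflects the spread among these libraries alone, which may be technical.

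FGFs are secreted proteins that bind receptor tyrosine kinases together with heparan sulfate, a sulfated sugar chain on cell-surface proteins. Receptor activation passes through the docking protein FRS2 and the RAS-ERK kinase chain and induces its own inhibitors, among them the Sprouty proteins. In many tissues fibroblasts and other mesenchymal cells make FGF7 and FGF10, which act on epithelial cells through the IIIb splice form of FGFR2, while mesenchymal cells themselves mostly use the IIIc forms of FGFR1 and FGFR2. Gene counts sum over splice forms, so IIIb and IIIc are not separated here.

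Total counts ran from 15598566 to 23681718 per library. Levels are given as CPM, read counts scaled to library size and composition (TMM factors), or as RPKM where genes are compared with each other, which also divides by exonic length. On this CPM scale 3 counts in a library correspond to 0.129 to 0.197 CPM. The targeted gene did not go with its label: Sphk2 had 654, 418 and 503 counts under the wild-type label and 964, 883 and 921 under the null label, a log2 fold change of 0.87 ± 0.051 (SE). Of its 4159 exonic bases, 864 are shared with Dbp and Rpl18, and gene counts do not show which exons the reads came from. Directions are therefore given between labels, null-labelled relative to wild-type-labelled. All 12 fibroblast markers examined were lower under the null label, 4 of which (Thy1, Dcn, Lum and Pdpn) had enough counts for the test only through the wild-type-labelled libraries. Their median was -8.23 on the log2 scale, or -7.80 with Thy1, which had no count there (256 against 0, at least 82.1-fold lower), at its bound. Fn1, fibronectin, stood at 2036 ± 43.7 against 3.37 ± 0.357 CPM and Col1a1, a type I collagen chain, at 623 ± 17.03 against 1.68 ± 0.209 CPM (SD, n = 3). Pdpn, podoplanin, fell from 70.4 ± 3.28 to 0.071 ± 0.027 CPM, and Vim, the intermediate filament vimentin, differed least (-0.81). Pdgfra (249.6 ± 7.50 against 89.4 ± 1.19 CPM, -1.48) and Pdgfrb (106.9 ± 2.37 against 29.0 ± 1.06 CPM, -1.88) also kept a part of their level. The summed level of the 12 markers was 14820 to 15300 CPM in wild-type-labelled and 3361 to 3396 CPM in null-labelled libraries. Vim alone stood at 5622 ± 114.8 and 3211 ± 17.9 CPM, so it made up nearly all of the null-labelled sum. The part of this marker loss in the FGF differences was not tested, and in bulk RNA fewer cells of a type and less RNA per cell cannot be told apart.

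Of the 10 genes, 7 had enough counts to be tested, of which 6 fell and 1 rose under the null label by edgeR's quasi-likelihood test (adjusted p under 0.05). Over all 15199 genes tested, 41.1% were lower and 38.1% higher, together 79.2%. The 7 genes include 3 that entered the test only through the wild-type-labelled libraries (Fgf1, Fgf10 and Fgfr2) and 1 only through the null-labelled ones (Fgfr3), and these had to differ. The size of the losses separated the genes. Fgf7, Fgf10 and Fgfr2 fell by over 32-fold, a loss seen in 6.15% of all genes tested, while Fgf2 fell 3.07-fold and Fgfr1 2.37-fold. The groups did not overlap in any of the 7, as in 79.9% of all genes tested. The largest edgeR adjusted p among the 7 was 2.96e-15, for Fgfr3.

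**Figure D1:**
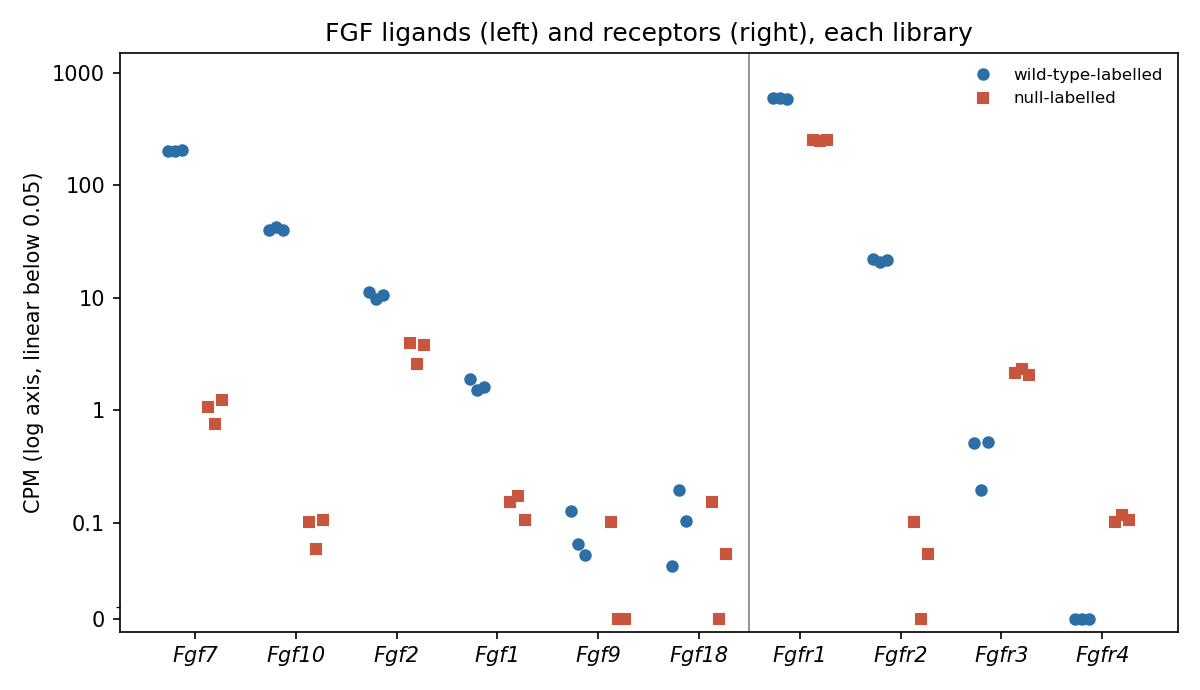
CPM of each FGF ligand and receptor in each library (log axis, linear below 0.05). Circles are the 3 wild-type-labelled and squares the 3 null-labelled libraries. Fgf7, Fgf10 and Fgfr2 stand more than 100-fold apart between the labels, Fgf2 and Fgfr1 less than 4-fold, and Fgf9 and Fgf18 overlap.

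Fgf7, keratinocyte growth factor, was the most abundant ligand transcript of the wild-type-labelled libraries, at 200.1, 203.5 and 204.3 CPM. It stood at 1.08, 0.759 and 1.23 CPM in the null-labelled libraries. The counts were 4652, 3101 and 3903 against 21, 13 and 23. Every null-labelled library was thus far below every wild-type-labelled one, yet none was at 0. The ratio of counts was 197 with a 95% counting interval of 152 to 260, and the log2 fold change was -7.61 ± 0.073 (SE, or 0.195 with DESeq2). Fgf7 (ENSMUSG00000027208) lies on the plus strand of chromosome 2 from 126034658 to 126091185 in mm10, and shares no exonic base with another gene of the annotation.

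Fgf10, a close relative that binds the same receptor form and is known for starting limb and lung buds, stood at 40.2, 42.8 and 40.2 CPM in the wild-type-labelled libraries. The null-labelled libraries held 2, 1 and 2 reads, or 0.103, 0.058 and 0.107 CPM, all under the level of 3 counts. The ratio of counts was 453, with a counting interval of 194 to 1397, and the log2 fold change was -8.72 ± 0.17 (SE). With so few null-labelled reads this SE is too small: it was 0.65 with DESeq2 and 0.419 with limma-voom. This interval overlaps that of Fgf7. Fgf10 (ENSMUSG00000021732) lies on the plus strand of chromosome 13 from 118669791 to 118792115, and 123 of its 4601 exonic bases are shared with the antisense gene Gm16263, which had 17 counts against 0.

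The 250 bases before the RefSeq start of these 2 ligands are shown because both genes lost nearly all transcripts. They are given 5′ to 3′ on the plus strand of GRCm38.p6, with CG pairs, the sites of DNA methylation, in capitals. The Fgf7 stretch is chr2:126034408-126034657 and ends at the gene start of the deposited annotation, while that of Fgf10, chr13:118714449-118714698, lies inside the annotated gene, which starts further upstream.
Fgf7: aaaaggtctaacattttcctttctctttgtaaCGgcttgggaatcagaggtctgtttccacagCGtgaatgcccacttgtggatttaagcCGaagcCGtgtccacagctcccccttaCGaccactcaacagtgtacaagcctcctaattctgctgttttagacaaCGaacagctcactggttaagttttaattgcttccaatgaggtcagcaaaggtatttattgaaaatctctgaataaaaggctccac
Fgf10: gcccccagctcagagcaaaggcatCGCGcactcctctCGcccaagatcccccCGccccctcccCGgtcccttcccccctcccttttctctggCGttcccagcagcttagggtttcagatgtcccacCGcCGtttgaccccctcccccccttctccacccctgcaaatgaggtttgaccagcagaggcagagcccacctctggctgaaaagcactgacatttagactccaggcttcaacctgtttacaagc
The Fgf7 stretch holds 6 CG pairs and 43.6% G and C, and the Fgf10 stretch 8 CG pairs and 61.2%. The median over the 32851 RefSeq promoters of this length is 6 CG pairs and 52.4%, and 49.6% and 57% of them hold fewer CG pairs than the Fgf7 and the Fgf10 stretch. Searched on both strands, the TATA box motif TATAAA had no match in either stretch, and 12.4% of all promoters hold it. The AP-1 motif TGANTCA (held by 6.7% of all promoters) was also without a match there. The same was true of the TEAD motif GGAATG (held by 12.6%).

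The other measured ligands were low or lost less. Fgf2, basic FGF, which is made without a classical signal peptide and binds the IIIc forms, stood at 11.3, 9.84 and 10.7 CPM against 3.996, 2.57 and 3.79 CPM. The groups did not overlap, and the counts were 3.07-fold lower (counting interval 2.61 to 3.63). Its log2 fold change was -1.62 ± 0.12 (SE). Fgf2 (ENSMUSG00000037225, chromosome 3, 37348346 to 37410108, plus strand) shares 13.2% of its exonic bases with other genes, mostly with the antisense gene Nudt6. Nudt6 fell by 0.46 on the log2 scale, with an edgeR adjusted p = 0.0112. The 2 genes lie on opposite strands, which the counting did not separate, so reads over exons of both were left uncounted.

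Fgf1, acidic FGF, which can activate all FGF receptors, was near the limit of detection, with 44, 23 and 31 counts against 3, 3 and 2. That is 1.89, 1.51 and 1.62 CPM against 0.154, 0.175 and 0.107 CPM, without overlap. The ratio of 11.8 had a counting interval of 5.75 to 28.1, and the log2 fold change was -3.50 ± 0.39 (SE). Fgf9, an autocrine and paracrine ligand of the IIIc forms, had 3, 1 and 1 counts against 2, 0 and 0. Fgf18, known from bone and cartilage, had 1, 3 and 2 counts against 3, 0 and 1. Both were at or below 3 counts in each of the 6 libraries, so a difference was not detectable at this depth. In mm10 Fgf1 (ENSMUSG00000036585) spans 38838673 to 38929404 of chromosome 18, Fgf9 (ENSMUSG00000021974) 58070547 to 58112337 of chromosome 14 and Fgf18 (ENSMUSG00000057967) 33117430 to 33147400 of chromosome 11. None of these 3 shares exonic bases with another gene.

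Among the receptors Fgfr1 was by far the highest and was kept at a lower level. It stood at 596, 599 and 590.1 CPM in the wild-type-labelled and 251, 249.6 and 253 CPM in the null-labelled libraries. These are 13860, 9125 and 11271 against 4898, 4273 and 4738 counts, so the ratio of 2.37 was precise, with a counting interval of 2.32 to 2.42. The log2 fold change was -1.25 ± 0.024 (SE), and the SD within the groups was 4.45 and 1.5 CPM. Fgfr1 (ENSMUSG00000031565) lies on the plus strand of chromosome 8 from 25513654 to 25575714 and shares 2.02% of its exonic bases with the antisense gene Gm16159.

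Fgfr2, the receptor for FGF7 and FGF10 in its IIIb form, was lost almost fully. It had 514, 319 and 413 counts in the wild-type-labelled libraries, or 22.1, 20.9 and 21.6 CPM. The null-labelled libraries held 2, 0 and 1 counts. The ratio was 399.5 with a counting interval of 136 to 1940, which overlaps the intervals of Fgf7 and Fgf10. Fgfr2 (ENSMUSG00000030849) (chromosome 7, 130162451 to 133123350, minus strand) has 7240 exonic bases, and 314 of them are shared with Ctbp2, which is on the same strand. Ctbp2, a transcriptional corepressor, fell by only 0.48 on the log2 scale, with 4364 against 3008 counts.

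Fgfr3, known as a brake on bone growth, was the only one of the 7 tested genes to rise. Its counts were 12, 3 and 10 under the wild-type label and 42, 40 and 39 under the null label, or 0.516, 0.197 and 0.524 against 2.15, 2.34 and 2.08 CPM. The groups did not overlap, and the ratio was 5.03 with a counting interval of 3.25 to 8.08. The log2 fold change was 2.32 ± 0.29 (SE). Fgfr3 (ENSMUSG00000054252, chromosome 5, 33721674 to 33737068, plus strand) shares 13.9% of its exonic bases with the antisense gene G630022F23Rik, which had 0 counts in all libraries. Fgfr4 (ENSMUSG00000005320, chromosome 13, 55152640 to 55168759, plus strand), the receptor best known from liver, had 0 counts in each wild-type-labelled library and 2 in each null-labelled one. With 3 counts set for the wild-type-labelled group, Fgfr4 would be 2.08-fold higher. This leaves out the counting error of the few null-labelled reads, so it is no firm lower bound. Fgfr4 had too few reads to enter the test.

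Per length, the order of levels changed between the labels. In the wild-type-labelled libraries Fgfr1 (73.3 ± 0.548 RPKM, SD, n = 3) was followed by Fgf7 (62.4 ± 0.683), Fgf10 (8.93 ± 0.33), Fgfr2 (2.98 ± 0.082), Fgf2 (1.56 ± 0.106) and Fgf1 (0.360 ± 0.042), and no neighbours in this order overlapped. In the null-labelled libraries Fgfr1 (30.9 ± 0.184 RPKM) was followed at a distance by Fgf2 (0.509 ± 0.114), Fgf7 (0.314 ± 0.073) and Fgfr3 (0.306 ± 0.019). Fgf7 and Fgfr3 overlapped there, as did most of the genes below Fgfr3. Ligand and receptor transcripts were thus of similar summed level in the wild-type-labelled libraries and far apart in the null-labelled ones.

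The summed RPKM of the 6 ligands was 72.5, 73.9 and 73.7 in the wild-type-labelled and 1.13, 0.663 and 1.03 in the null-labelled libraries, 78.1-fold lower in the mean. That of the 4 receptors was 76.6, 76.7 and 75.7 against 31.3, 31.1 and 31.4, only 2.44-fold lower. Fgf7 made up 85.1% ± 0.322 of the ligand sum in the wild-type-labelled and 33.8% ± 3.93 in the null-labelled libraries (SD, n = 3). The share of Fgf10 went from 12.2% ± 0.382 to 2.05% ± 0.184, and that of Fgf2 from 2.13% ± 0.165 to 54.6% ± 2.49, although the level of Fgf2 itself fell. Fgfr1 made up 96.02% ± 0.149 of the receptor sum against 98.9% ± 0.056, and Fgfr2 3.90% ± 0.115 against 0.023% ± 0.023. For each of these 5 shares and both sums, a two-sided exact permutation test gave p = 0.1, the smallest value that 3 against 3 libraries allow. Adjusted over the 10 shares tested, this became p = 0.125 in the exact permutation tests, and no share could have passed 0.05.

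**Figure D2:**
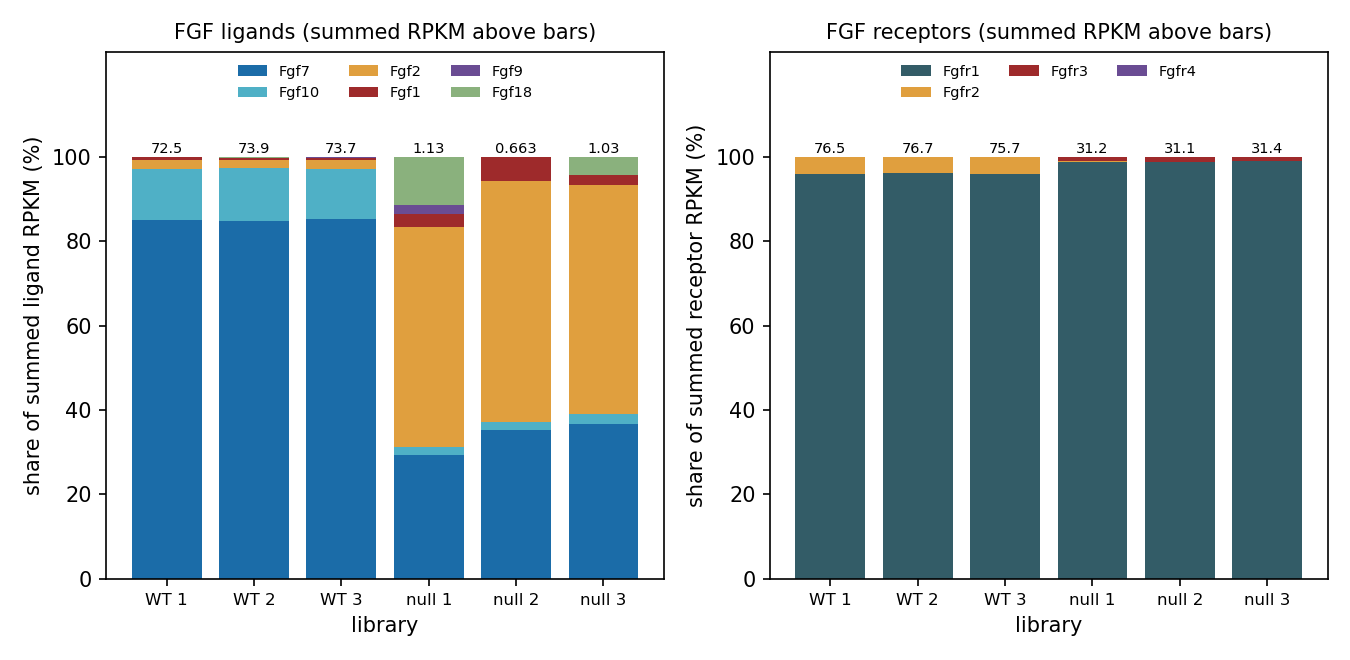
Share of each gene in the summed RPKM of the 6 ligands (left) and the 4 receptors (right), by library, with the sum in RPKM above each bar. Fgf7 makes up 85.1% of the ligand sum in the mean of the wild-type-labelled libraries and Fgf2 54.6% in that of the null-labelled ones, while Fgfr1 holds over 95% of the receptor sum in all 6 libraries.

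The other 16 FGF genes were close to silent, with 1 exception. Fgf11, an intracellular FGF homologue that is not secreted and does not signal through FGF receptors in the classical way, was the only one with enough counts to be tested. It rose from 0.817, 0.591 and 0.733 CPM to 17.4, 18.6 and 17.4 CPM, with a log2 fold change of 4.6 ± 0.15 (SE). Per length it stood at 5.86 ± 0.229 RPKM under the null label (SD, n = 3), above Fgf2 and Fgf7 there. Fgf14, of the same intracellular group, had 33 counts against 2 and was not tested. Of the 16 genes, 4 (Fgf3, Fgf4, Fgf8 and Fgf20) had 0 counts in all libraries.

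Transcripts for proteins that bind FGFs, assist their receptors or carry heparan sulfate went both ways. Of 18 co-receptors, FGF-binding proteins and heparan sulfate carriers, 14 were tested, with 9 falling, 3 rising and a median of -1.67 on the log2 scale. Of these, Gpc4, Gpc6, Sdc3 and Flrt1 entered the test only through the wild-type-labelled and Kl only through the null-labelled libraries, so their direction was set by entry, and 41.1% of all genes tested were lower and 38.1% higher. The glypicans Gpc4 (2533 counts against 5) and Gpc6 (2024 against 7) and the syndecan Sdc3 (3427 against 22) fell most, with log2 fold changes of -8.82 ± 0.16, -8.05 ± 0.17 and -7.20 ± 0.12 (SE). Flrt2, a membrane protein that binds FGF receptors, fell from 132 ± 3.42 to 11.97 ± 0.181 CPM (SD, n = 3). Sdc4 rose from 199 ± 4.31 to 589.7 ± 6.32 CPM and Gpc1 from 213 ± 13.4 to 391 ± 4.50 CPM. Sdc1, at 309.5 ± 7.19 against 310.4 ± 4.56 CPM, missed the threshold (edgeR adjusted p = 0.858) and was called higher when library totals alone set the scale. The summed level of the list overlapped between the groups, at 1946 to 2023 against 1936 to 1953 CPM. Kl, which encodes the co-receptor of endocrine FGFs, alpha-Klotho, rose from 2 counts to 51, or 26.5-fold (counting interval 6.97 to 225).

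Among 14 enzymes that build, sulfate or trim heparan sulfate, 11 were tested, 9 falling and 1 rising (median -0.76, also with Sulf1 at its bound), beside 41.1% and 38.1% of all genes tested. Hs6st2 and Sulf1 are 2 of the 9 and entered the test only through the wild-type-labelled libraries. Hs6st2, a 6-O-sulfotransferase, fell from 49.8 ± 2.14 to 0.11 ± 0.061 CPM (SD, n = 3), while its relative Hs6st1 fell by 1.05 on the log2 scale. The sulfatase Sulf2, which removes such sulfates outside the cell, fell from 244 ± 8.49 to 9.11 ± 0.241 CPM. Sulf1, of the same function, had 191 counts against 0 and was at least 61.3-fold lower. The chain polymerase subunit Ext1 fell from 183 ± 3.17 to 42.9 ± 0.829 CPM, whereas its partner Ext2 did not pass the threshold (log2 fold change 0.05 ± 0.029 SE), except with library totals alone, where it was called higher.

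All 22 docking proteins and members of the RAS-ERK chain were tested, 12 rising and 8 falling, beside 38.1% and 41.1% of all genes, and the median log2 fold change was 0.13. The docking protein gene Gab1, with a log2 fold change of 2.17 ± 0.03 (SE), stood at 73.6, 78.8 and 76.8 CPM against 347, 341 and 337 CPM. Sos2, an activator of RAS, rose by 1.80 ± 0.036 (SE) and the kinase Braf by 1.18 ± 0.038 on the log2 scale. Frs2 itself, the docking protein nearest to the receptor, fell by 0.52.

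Feedback inhibitors, whose transcripts FGF signalling is known to induce, were tested in 10 cases, of which 8 fell and 2 rose (median -1.31 on the log2 scale), beside 41.1% and 38.1% of all genes. Il17rd entered the test only through the wild-type-labelled libraries. Il17rd, which encodes the membrane inhibitor Sef, stood at 15.6, 13.8 and 12.3 CPM against 0.154, 0.117 and 0.107 CPM (log2 fold change -6.72 ± 0.23 SE). Spry1 stood at 22.03, 23.2 and 23.98 CPM against 0.820, 0.993 and 0.853 CPM (-4.69 ± 0.13 SE). The ERK phosphatase Dusp6 stood at 109.6, 117 and 111 CPM against 14.1, 16.7 and 14.5 CPM (-2.90 ± 0.050 SE), and Spry2 fell by 2.03. In none of these 4 did the groups overlap, as in 79.9% of all genes tested. The ERK phosphatase Dusp4 and its relative Dusp5 rose, by 0.17 and 0.45 on the log2 scale.

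Of 8 factors downstream of ERK, 5 were lower and 3 higher, beside 41.1% and 38.1% of all genes tested, with a median of -0.16. The third higher gene, Fos, was near the threshold, with 140 counts against 174 (log2 fold change 0.37 ± 0.18 SE, edgeR adjusted p = 0.0456). Egr1, an immediate early gene that entered the test only through the wild-type-labelled libraries, stood at 21.1, 21.6 and 19.95 CPM against 0.410, 0.234 and 0.373 CPM (log2 fold change -5.90 ± 0.17 SE). The ETS factors Etv5 (-0.86 ± 0.044 SE) and Etv1 (-0.575 ± 0.065 SE) were lower, Etv4 was higher (0.47 ± 0.027 SE), and Myc was higher by 0.57 ± 0.024. A link of these genes to the FGF levels was not tested.

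Regulators of the choice between receptor exons IIIb and IIIc were led by Ptbp1 and Hnrnpm in both groups, with the epithelial ones close to 0. Esrp1, the epithelial regulator that favours IIIb, had 1 count against 3, and its relative Esrp2 13 against 39, at 0.220 ± 0.092 and 0.710 ± 0.144 CPM (SD, n = 3). Ptbp1, a repressor of IIIb, stood at 439 ± 5.49 against 485 ± 12.8 CPM and its relative Ptbp2 at 179 ± 0.923 against 71.9 ± 1.55 CPM. Rbfox2 and Hnrnpm were lower by small amounts (-0.12 and -0.09 on the log2 scale), and Hnrnpm lost its call when library totals alone set the scale. Of the 6 genes, 5 were tested, and 2 were higher and 3 lower, beside 38.1% and 41.1% of all genes tested. Esrp2, 1 of the 2, entered the test only through the null-labelled libraries. Exon use itself was not measured.

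**Figure D3:**
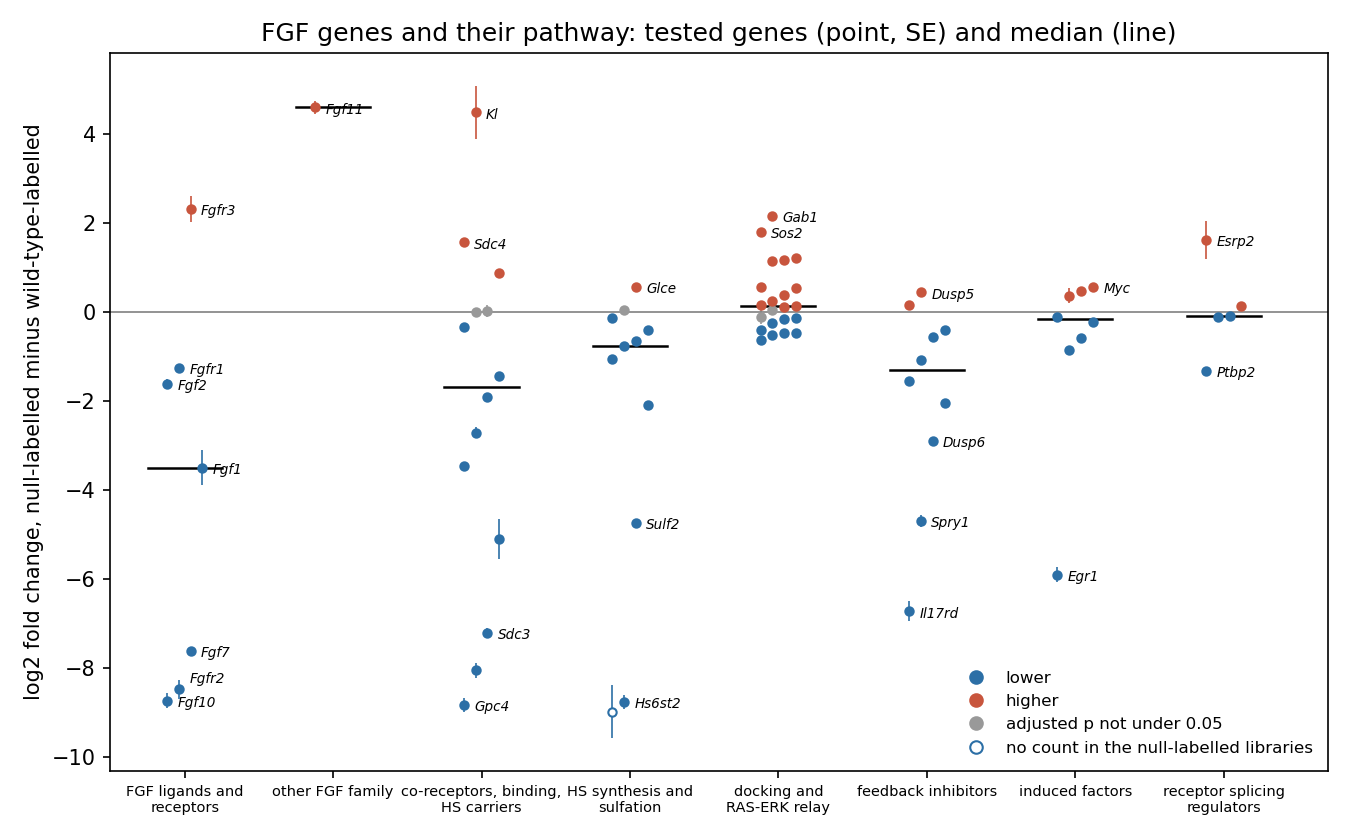
Log2 fold change (null-labelled minus wild-type-labelled) of each tested gene with its SE, by list, with the list's median as a line. The SE is too small for genes with few counts in 1 group. Blue points are lower, red points higher and grey points not past an adjusted p of 0.05, and the open point is Sulf1, which had no count in the null-labelled libraries. Fgf7, Fgf10, Fgfr2, several carriers and Hs6st2 lie below -7, while the docking and RAS-ERK genes all lie above -1, with Gab1 highest at 2.17.

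By level over the 6 libraries, on the log2(RPKM + 0.1) scale, the 3 tested genes nearest to Fgf7 were the collagen Col8a1 (72.9 against 0.378 RPKM), the proteoglycan decorin, Dcn (47.9 against 0.25 RPKM), and Thbs1, thrombospondin (85.4 against 0.274 RPKM), at Euclidean distances of 0.781 to 0.884. Those nearest to Fgfr1 were Parvb, F2r and Asap1, at distances of 0.201 to 0.274. With 2 groups of libraries this likeness rests on the level in each group.

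Markers of other cell types were low or rested on single genes. The summed epithelial markers were 110.1 to 115 CPM in the wild-type-labelled and 386 to 412 CPM in the null-labelled libraries, nearly all of it Krt8 (107 ± 1.80 against 397 ± 13.4 CPM, SD, n = 3). The defining epithelial genes Epcam (9 counts against 6) and Cdh1 (22 against 21) were near 0 in both groups, Ocln was lower, Krt18, the partner keratin of Krt8, fell from 69 counts to 16, and Krt14 had 0 counts against 35. Endothelial, blood cell, skeletal muscle and trophoblast markers summed to under 8 CPM in every library. Of the tested blood cell genes, Lyz2 rose from 2 counts to 152 and Csf1r from 16 to 56. Cd68 fell from 190 to 111. Of the tested trophoblast genes, Krt7 rose from 3 counts to 70 and Eomes fell from 55 to 6. Lyz2, Csf1r and Krt7 entered the test only through the null-labelled libraries, and Eomes only through the wild-type-labelled ones. Neural and glial markers summed to 312 to 318 against 438 to 463 CPM, mostly from Nes (301 ± 3.61 against 434 ± 12.2 CPM, SD, n = 3). The pluripotent cell list stood at 112 to 113 CPM against 0.320 to 0.769 CPM, of which Sox2 made up 112 ± 0.568 and 0.093 ± 0.071 CPM (SD, n = 3), while Zfp42, Dppa5a and Utf1 had 0 counts in all libraries. The part of these differences in the FGF values was not tested.

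**Figure D4:**
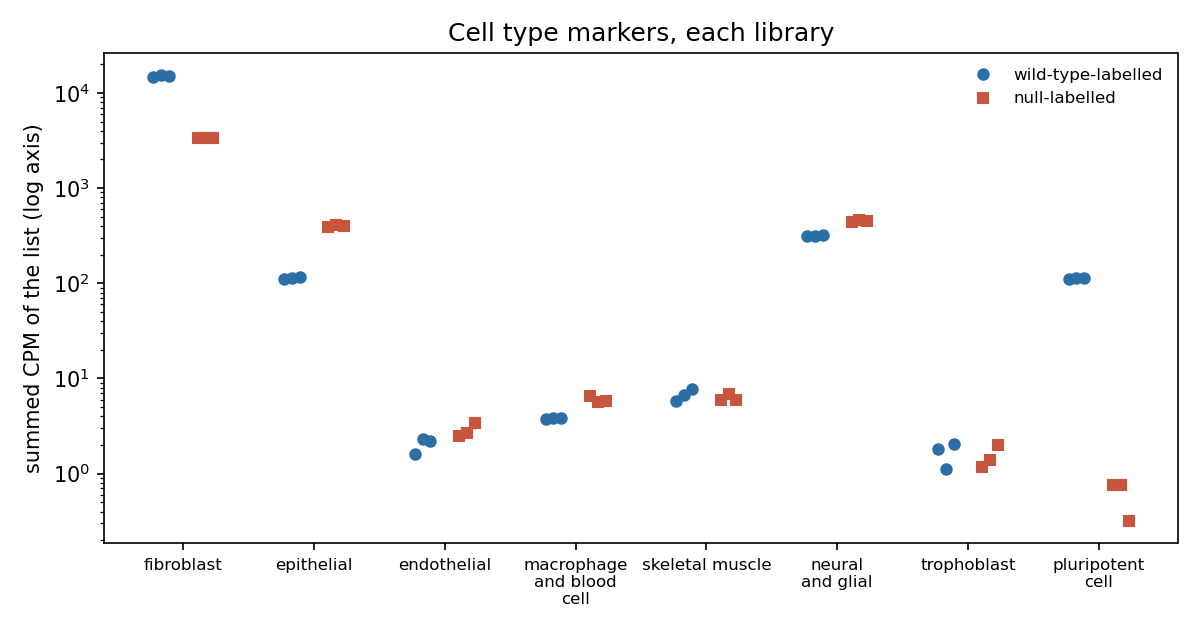
Summed CPM of each list of cell type markers in each library (log axis), with circles for wild-type-labelled and squares for null-labelled libraries. The fibroblast sum falls from 14820 to 15300 CPM to 3361 to 3396 CPM, nearly all of the latter from Vim, and the epithelial sum, mostly Krt8, rises.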

How the data were processed

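RNA from 6 libraries was sequenced as single reads of 51 bp, per the labels. The deposited values are raw counts per Ensembl gene over exons, which the authors made with featureCounts 1.6.2 from Ensembl annotation 83 on GRCm38 (mm10), without a strand option, per the file headers. The command in the header sets nothing for reads that map to several places or overlap several genes. The submitters' processing notes also name featureCounts 1.2.6, FastQC 0.11.2, Subread 1.6.2 and Trimmomatic 0.33, and list the human build hg38 beside GRCm38 and mm10. Symbols came from identifiers (46488 of 46983 matched). The exonic length, per the file headers, gave RPKM.

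With edgeR 4.0.16 in R 4.3.3, filterByExpr kept 15199 genes, TMM gave the scaling and a robust quasi-likelihood F-test compared 3 null-labelled with 3 wild-type-labelled libraries (Benjamini-Hochberg threshold 0.05). The alternatives are given in the closing section. CPM use TMM-scaled totals of the tested genes. The SE is the log2 fold change over the square root of F, and is too small where 1 group has few counts. For Fgf7, Fgf10 and Fgfr2 it was 0.0727, 0.167 and 0.223, against 0.195, 0.65 and 0.839 with DESeq2. With limma-voom it was 0.2, 0.419 and 0.445. Gpc4, Gpc6, Sdc3, Il17rd and Egr1, with few null-labelled counts, call for the same caution. Ratios of counts are scaled by library size and have exact binomial 95% counting intervals, which cover counting error only. Promoters came from RefSeq (GRCm38.p6), and entries for 8 of the 10 genes were used. Member entries on chromosome 18, where Fgf1 lies, were left out of the search, and Fgfr1 had no usable entry. The promoter of Fgfr2 is not shown because the bases after its start were in 0 GENCODE transcripts.

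Members and gene lists were chosen with earlier results of these data known. Named were all 10 members, Sphk2, up to 4 genes per list with the largest called difference and an average log2 CPM of at least 1, all of a list of 6, and the 3 genes nearest in level to the highest ligand and receptor. Others, such as Sdc1, Sdc4, Gpc1, Kl, Sulf1, Ext2, Frs2, Etv4, Fos, Krt14, Krt18, Dusp4, Dusp5, Fgf14, Vim, Pdgfra, Pdgfrb, Epcam, Cdh1 and Sox2, were named after their values were seen. So were Nes, Lyz2, Csf1r, Cd68, Krt7 and Eomes. Of the listed genes, Spry3 was not matched, and some items that the rule names are not reported here.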

Additional observations from a re-analysis of the deposited data

How the results depend on the processing

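The log2 fold changes of the 7 tested genes kept their direction and stayed past the threshold in all 14 alternatives (other size factors, library totals, DESeq2 1.42.0, limma-voom 3.58.1, other filters, a stricter threshold, a block and leaving out each library). They ranged from -7.76 to -7.46 for Fgf7, -8.85 to -8.48 for Fgf10, -9.29 to -7.99 for Fgfr2, -1.74 to -1.46 for Fgf2, -3.64 to -3.32 for Fgf1, -1.27 to -1.19 for Fgfr1 and 2.05 to 2.51 for Fgfr3. With no filter on low counts, 2 members were higher, Fgfr4 being the added one (log2 fold change 4.10 ± 1.69 SE, edgeR adjusted p = 0.0327), and Fgf9 and Fgf18 missed the threshold (adjusted p = 0.45 and 0.699). There, 2 of the other FGF genes were lower and 2 higher. When a library was left out, 0 to 1 of the other FGF genes were lower and 1 to 2 of the heparan sulfate enzymes higher. With library totals, 2 of these enzymes were higher, Ccnd1 and Hnrnpm lost their calls, and Sdc1, Ext2 and Map2k2 became higher. Of the factors downstream of ERK, 2 in place of 3 were higher with DESeq2, limma-voom, no filter or an adjusted p under 0.01, and 2 to 3 when a library was left out. Over 1 CPM in at least 3 libraries left 1 splicing regulator higher. As shares of raw counts, Fgf7 made up 79.1% against 21.3% of the ligands, Fgf10 16.04% against 1.83%, Fgf2 4.14% against 71.8%, Fgfr1 96.4% against 99.1% of the receptors, and Fgfr2 3.49% in the wild-type-labelled libraries. Libraries with the same replicate number did not deviate together (correlations -0.003 to 0.018). The replicate block changed no call of the listed genes, with Fgf7 at -7.61 on the log2 scale, and 6 members lower and 1 higher. Genes with fewer than 10 counts per library, among them Fgf9, Fgf18 and Fgfr4, are limited by depth.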

Other observations

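The tested genes next to the FGF genes on the chromosome were examined after the values had been seen. Fgf10 stands in a gene-poor stretch, with Mrps30, a mitochondrial ribosomal protein gene, 283 kb before it and Nnt, a mitochondrial transhydrogenase gene, 543 kb after it. These differed by only 0.10 ± 0.043 and -0.09 ± 0.038 (SE) on the log2 scale. Fgf7 lies between Galk2 and Dtwd1, 50.4 and 61 kb away, with log2 fold changes of -0.78 ± 0.054 and -1.05 ± 0.062 (SE). Outside the annotated span of Fgfr2 (130162451 to 133123350), Wdr11 and Edrf1 were 527 and 514 kb from its ends, at -0.56 ± 0.048 and -0.175 ± 0.061 (SE). Genes overlapping this long span, such as Ctbp2 (-0.48), were not taken as neighbours. The RefSeq promoter stretch of Fgfr2 lies at 130266809 to 130267058, far from the Edrf1 end, so Edrf1 need not be the tested gene nearest to that start. None of these 6 neighbours fell by as much as 1.1 on the log2 scale, while the 3 FGF genes between them fell by over 7.

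Fgfr3 rose between Tacc3 and Letm1, which were higher by 0.40 ± 0.027 and 0.41 ± 0.031 (SE). The tested neighbours of Fgf2 were lower, Bbs12 at -0.735 ± 0.056 and Spata5 at -0.28 ± 0.038 (SE). Beside Fgfr1, Letm2, 2.8 kb away, was higher by 1.18 ± 0.22 (SE), and Gm10689, 59 kb away on the other side, was at -0.735 ± 0.298 (SE). Beside Fgf1, Gm19774 missed the threshold (0.00 ± 0.38 SE) and Nr3c1, the glucocorticoid receptor gene, was at -0.38 ± 0.033 (SE).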
